A study of Bos taurus with 9 samples.

Results

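The regions described here carried an H3K27ac peak in control rumen and had no H3K27ac peak at the same place after butyrate and no H3K9ac peak in either condition. They were selected on the peak lists themselves. The 4 acetylation lists (H3K9ac and H3K27ac, each in control and after butyrate) were merged on chromosomes 1 to 29 wherever peaks shared at least 1 bp, which gave 46982 merged regions. Of these, 14269 overlapped a control H3K27ac peak and no peak of the other 3 lists, and they are called control-only regions below. Since overlap with the butyrate H3K27ac list chose them, their number is a description and not a test of butyrate.

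The libraries came from ChIP-seq of Holstein rumen tissue, the lining of the first stomach chamber of cattle. The control group was tissue taken before butyrate treatment and the butyrate group was tissue taken after 24 h of treatment by infusion, with the rumen sampled by biopsy. Each group used here, control or butyrate with an antibody against H3K9ac, H3K27ac, H3K9me3 or RNA polymerase II (RNA pol II), held 1 library, and a library of input chromatin served all of them. The age of the animals and how many gave tissue for a library are not given in the sources used here. There is therefore no replicate check on any difference between conditions, and the 95% Wilson intervals given in brackets cover counting error only. The control H3K27ac library was run on lane 1 and the butyrate H3K27ac library on lane 3, so that lane and condition cannot be told apart. Rumen tissue is a mixture of cell types, and fewer cells with a mark cannot be told apart from less of the mark per cell.

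H3K27ac, the acetylation of lysine 27 on histone H3, marks active enhancers and promoters, whereas H3K9ac is found mostly at promoters of active genes. RNA pol II marks transcribed genes and engaged promoters, and H3K9me3 marks heterochromatin, the compact and mostly silent part of the genome. Butyrate, a product of fermentation in the rumen and a fuel of its epithelium, slows the removal of acetyl groups from histones because it inhibits histone deacetylases. Genes near the regions were not analysed here, since the gene table at hand is of another assembly (ARS-UCD2.0) than the peaks (UMD3.1.1). For the same reason the labelled tissue was not checked against marker genes.

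Most control-only regions were short. Each of the 14269 was exactly 1 control peak, which the rule brings about where peaks of a list do not overlap. Together they were 38.6% (38.1 to 39.1) of the 36963 control H3K27ac peaks on chromosomes 1 to 29. They covered 3862 kb, or 28.8% of the base pairs under control H3K27ac peaks, a smaller share than their share of peaks because they were narrow. The mirror set, regions with a butyrate H3K27ac peak and none in the other 3 lists, held 10028 regions, which is 30.6% (30.1 to 31.1) of the 32763 butyrate H3K27ac peaks. Regions with both H3K27ac lists, called kept regions, numbered 21132, of which 16016 had no H3K9ac and 5116 had it. For background, 31.3% of all merged regions had control and no butyrate H3K27ac, and 443 of these regions also held H3K9ac and are not members.

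The control list was the longer one, with 37568 peaks in all against 33241 after butyrate. Kept regions draw on both lists, so the excess of control-only over butyrate-only regions follows largely from the list lengths. With the control list shortened in file order to the length of the butyrate list, there were 12291 control-only and 11913 butyrate-only regions. The control-only share of both sets fell from 58.7% to 50.8%. Lists of equal length leave near equal numbers by construction, so this fall is no separate finding. The order in which the files list their peaks is not explained in the sources used here, and the lists carry no read number, score or p-value. The part of library depth in the excess was not tested.

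The edge of the rule was thin. Among members, the region at chr12:11267763-11267981 abutted a butyrate H3K27ac peak with 0 bp between them, and those at chr1:74029322-74029932 and chr13:78874930-78875132 each lay 1 bp from one. Just outside the rule, the control peaks at chr4:119389985-119390204, chr19:9800266-9800473 and chr20:41497390-41497688 each shared 1 bp with a butyrate peak. Of the 22217 control peaks on chromosomes 1 to 29 that overlapped a butyrate peak, 68 did so by at most 10 bp and 502 (2.26%) by under 25% of their width. Butyrate H3K27ac was often close to a control-only region without touching it. The median gap from a member to the nearest butyrate H3K27ac peak was 2742 bp, with 4.68% (4.35 to 5.04) of members within 100 bp, 36.2% (35.5 to 37.0) within 1 kb and 68.5% (67.7 to 69.3) within 10 kb.

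Control-only regions were narrow. Their median width was 242 bp, with the middle 50% between 209 and 300 bp and a widest region of 1125 bp. Butyrate-only regions had nearly the same widths, with a median of 247 bp, while kept regions without H3K9ac, which are unions of control and butyrate peaks, had a median of 427 bp. The smallest width in the lists was 200 bp, and 16.8% (16.2 to 17.4) of members had it. A peak of that width was a member far more often than a wide one. Control-only regions took 72.2% (70.6 to 73.7) of the control H3K27ac peaks of 200 bp, 52.7% (51.9 to 53.5) of those above 200 to 300 bp, 27.5% (26.7 to 28.4) of those above 300 to 500 bp and 5.93% (5.37 to 6.53) of those over 500 bp. In the butyrate list the corresponding shares of butyrate-only regions were 60.2%, 43.1%, 22.2% and 5.12%, so the fall with width was seen in both lists and the control-only share was the higher one in each class. In peaks over 500 bp the intervals of the shares overlapped. The part of width itself in these shares was not tested.

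**Figure D1:**
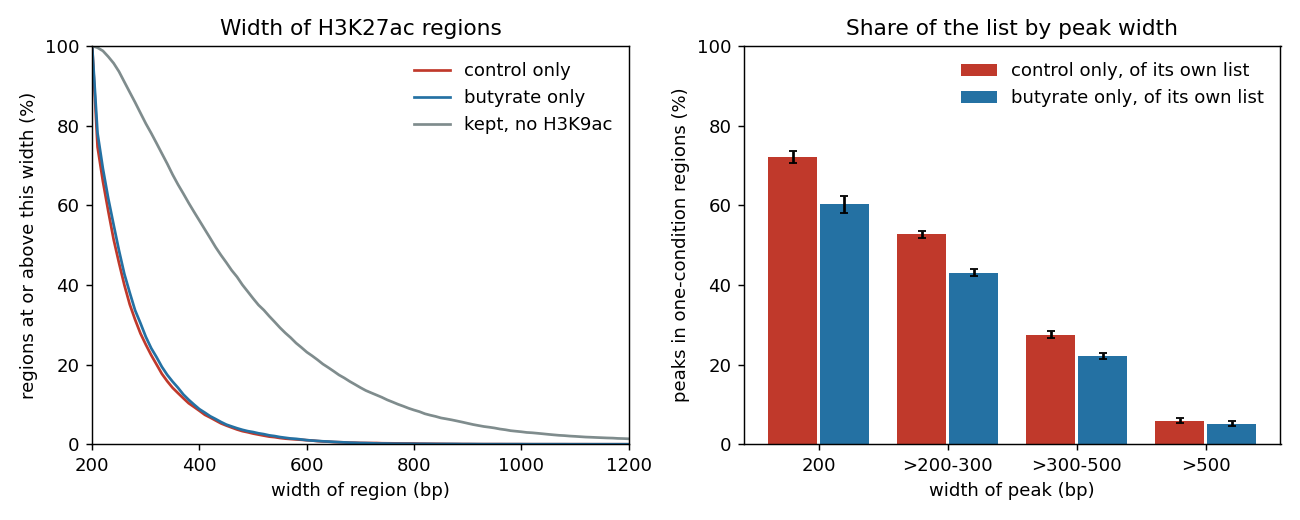
The left panel plots the percentage of control-only, butyrate-only and kept H3K27ac regions without H3K9ac (y axis) at or above each width in bp (x axis). The right panel plots, by width class of the peak, the percentage of control H3K27ac peaks that were control-only regions and of butyrate H3K27ac peaks that were butyrate-only regions, with 95% Wilson intervals as bars, falling from 72.2% to 5.93% and from 60.2% to 5.12%.

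The 5 widest members were exceptions to this picture. They were chr11:104144890-104146014 (1125 bp), chr11:25505345-25506360 (1016 bp), chr10:35842722-35843717 (996 bp), chr21:65904606-65905574 (969 bp) and chr28:36097349-36098259 (911 bp). None of the 5 lay under a peak of RNA pol II or H3K9me3. All but the third lay within 10 kb of a kept region, with gaps of 7690, 567, 2799 and 64 bp, and the third lay 20682 bp from one. H3K9ac regions were between 2310 and 29500 bp away. The butyrate list thus held an H3K27ac peak close to some of these wide regions, the nearest 114 bp from the fifth, but none on them.

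Members also stood late in the control list. Their median place was 62.6% of the way through it, against 42.3% for the control peaks of kept regions without H3K9ac. In the first 10% of the list, 6.58% (5.83 to 7.42) of peaks on chromosomes 1 to 29 were control-only regions. The share was 52.1% (50.5 to 53.8) from 40 to 50% of the list, reached 55.9% (54.3 to 57.5) from 80 to 90% and was 44.4% (42.8 to 46.0) in the last 10%. What the order stands for was not tested.

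Control-only regions lay less close than butyrate-only regions to H3K27ac that was called in both conditions. The gap from a member to the nearest kept region ranged from 2 bp to 2651563 bp with a median of 5958 bp, and 25% of members lay within 795 bp. The median depended on how peaks were selected and merged, and was 11760 bp with peaks up to 500 bp apart merged, 14740 bp with only peaks wider than 300 bp, 15500 bp for members without a butyrate H3K27ac peak within 1 kb and 17420 bp with the first 50% of every list. The setting of 1 kb drops members close to kept regions by its rule, since each kept region holds a butyrate peak. The median of the butyrate-only regions to the same kept regions was 3884 bp, and that of kept regions without H3K9ac to the nearest other kept region was 1514 bp. Within 10 kb of a kept region were 57.8% (57.0 to 58.7) of control-only regions, 63.1% (62.2 to 64.1) of butyrate-only regions and 69.6% (68.9 to 70.3) of kept regions without H3K9ac, where 64.3% of all merged regions had another kept region that near. The control-only share was below the butyrate-only share, with a difference of -5.30 percentage points and a 95% Newcombe interval of -6.54 to -4.05 that covers counting error only. It kept its sign under each of the 7 alternatives tried, between -3.70 and -7.90.

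The same order held at shorter distances. Within 1 kb of a kept region were 27.7% (27 to 28.4) of control-only, 32.2% (31.3 to 33.1) of butyrate-only and 45.0% (44.3 to 45.8) of kept regions without H3K9ac. The shares beyond 100 kb stood in the reverse order, with overlapping intervals for control-only and butyrate-only regions. Beyond 100 kb lay 8.84% (8.38 to 9.31) of control-only regions, 7.97% (7.45 to 8.51) of butyrate-only regions and 6.47% (6.10 to 6.86) of kept regions without H3K9ac.

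**Figure D2:**
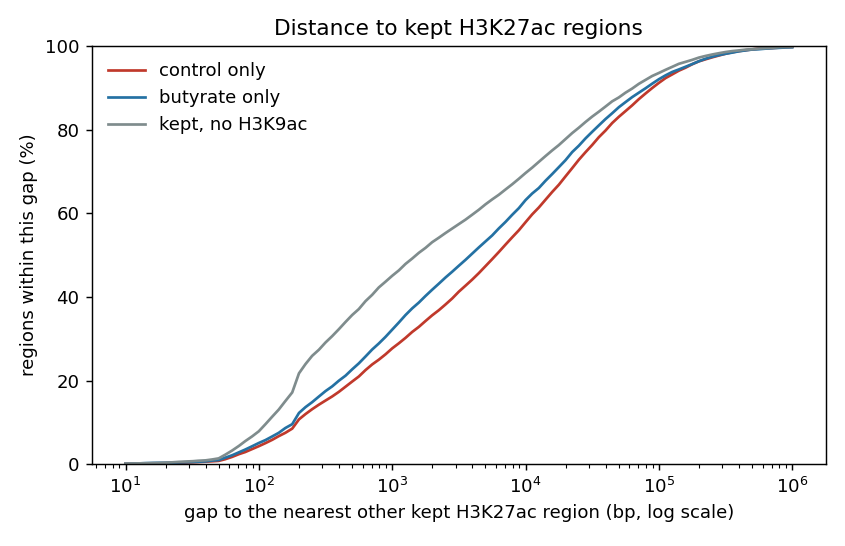
The curves plot the percentage of regions (y axis) whose gap to the nearest other kept H3K27ac region is at most the value on the x axis (bp, log scale), for control-only, butyrate-only and kept regions without H3K9ac. At 10 kb they stand at 57.8%, 63.1% and 69.6%, and by 100 kb they lie between 91.2% and 93.5%.

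The gap to kept regions grew shorter as members grew wider. Members of 200 bp had a median gap of 8948 bp, those above 200 to 300 bp one of 5734 bp, those above 300 to 500 bp one of 5166 bp and those over 500 bp one of 3514 bp. For butyrate-only regions the medians in these classes were 6620, 3828, 3059 and 2759 bp, shorter in each class. Within 10 kb, the control-only share was lower than the butyrate-only share in 3 of the 4 classes, for example 58.4% (57.3 to 59.5) against 63.5% (62.2 to 64.7) above 200 to 300 bp. Over 500 bp it was 67.2% (62.3 to 71.7) against 65.2% (59.7 to 70.4), with intervals that overlapped.

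The kept regions next to members carried H3K9ac slightly less often than kept regions in general. The nearest kept region of a member carried H3K9ac in 22.6% (21.9 to 23.2) of cases, and that of a butyrate-only region in 22.4% (21.6 to 23.2), where 24.2% of all kept regions did. Its median width was 455 bp, against 464 bp over all kept regions. For members within 1 kb of a kept region the H3K9ac share was 21.7% (20.5 to 23.0), and for those beyond 100 kb it was 20.1% (18 to 22.4). In between it was 23.7% (22.5 to 25) above 1 to 10 kb, an interval that holds the share of all kept regions. Above 10 to 100 kb it was 22.8% (21.7 to 24.1). Regions with H3K9ac, the promoter-type mark, were farther off than kept regions. They are also fewer than kept regions, and the rule leaves out members that touch one, so the longer gap is no finding about members. The median gap from a member to the nearest region with H3K9ac was 34120 bp, against 31270 bp for butyrate-only regions and 26950 bp for kept regions without H3K9ac, and 28.7% (28.0 to 29.5), 30.8% (29.9 to 31.7) and 34.6% (33.9 to 35.4) lay within 10 kb of one.

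A part of the members stood alone. With no other acetylated region within 10 kb were 21.1% (20.4 to 21.8) of control-only regions, against 15.9% (15.2 to 16.6) of butyrate-only regions. Within 100 kb the shares were 2.49% (2.25 to 2.76) and 2.27% (2.00 to 2.58), with intervals that overlapped. The 3 members farthest from any other acetylated region were chr26:27806392-27806591, chr8:33262056-33262266 and chr10:95288920-95289119, with empty stretches of 1814714, 1626724 and 1323819 bp to the nearest one. They were 200, 211 and 200 bp wide, at or near the smallest width in the lists, and none lay under an RNA pol II or H3K9me3 peak.

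Members were about as near to one another as acetylated regions of any kind were to a member. Within 10 kb of another control-only region were 49.8% (49.0 to 50.6) of members, where 50.9% of all merged regions were, with 50.8% (49.9 to 51.8) of butyrate-only regions and 51.9% (51.1 to 52.7) of kept regions without H3K9ac. Within 10 kb of a butyrate-only region were 38.9% (38.1 to 39.7) of members, where 43% of all merged regions had another butyrate-only region that near.

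The order of regions along the chromosome, which leaves distance aside, showed a modest excess of like neighbours. The next region after a control-only region was again control-only in 33.5% (32.8 to 34.3) of cases, where 30.4% of all next regions were. It was butyrate-only in 21.3% (20.6 to 22.0), where the share over all next regions was 21.3%, and kept in 41.5% (40.7 to 42.4), where it was 45.0%. Butyrate-only regions showed the same pattern, with 24.4% (23.5 to 25.2) followed by another of their kind. Kept regions did so too, with 49.1% (48.4 to 49.8) followed by a kept region. Of members with a neighbour on both sides, 65.4% (64.6 to 66.2) had a kept region on at least one side, 17.6% (16.9 to 18.2) had one on each side and 11.4% (10.9 to 12) had a control-only region on each side. The shares for both sides were not computed over all regions, so these values have no background beside them.

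Most uninterrupted runs of control-only regions were short. With no other acetylated region in between, 44.4% (43.6 to 45.2) of members stood alone in their run, and 26.7% (26.0 to 27.4) belonged to runs of at least 3. Runs of at least 5 numbered 118 and held 4.57% (4.24 to 4.92) of members, and the longest held 9. The stretch at chr12:13784304-14134305 spanned 350 kb with 9 control-only regions of 200 to 566 bp. A second run of 9 members of 200 to 373 bp spanned 126 kb at chr12:78304397-78429920. The third, with 8 members of 200 to 438 bp, spanned 81.8 kb at chr26:33790575-33872385. These are stretches in which every acetylated region of the 4 lists was an H3K27ac peak of control alone. Among butyrate-only regions, the smaller set, 57.8% (56.8 to 58.8) stood alone and 15.6% (14.9 to 16.4) were in runs of at least 3. Of their runs 39 reached 5, and the longest also held 9. Run length rises with the share of a kind among all merged regions, 30.4% for control-only and 21.3% for butyrate-only. The difference in runs between the sets is therefore no finding.

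Dense clusters of members could also enclose kept regions. When control-only regions with gaps of at most 10 kb were chained, 960 chains held at least 3 members, with 25.2% (24.5 to 25.9) of all members, and 9 chains held at least 10. No chain of butyrate-only regions, the smaller set, reached 10. The chain with the most members, 12 of 200 to 614 bp over 45.8 kb at chr21:33588927-33634734, also enclosed 9 kept regions and 1 butyrate-only region. The chain at chr13:61785045-61817397 held 11 members of 200 to 641 bp over 32.4 kb with 9 kept regions, 4 butyrate-only regions and 1 region of another kind. Another of 11 members of 200 to 554 bp, over 35.1 kb at chr17:4647557-4682608, enclosed only 2 kept regions and 1 butyrate-only region.

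At the scale of 1 Mb, control-only regions were spread over the acetylated genome and were most numerous where kept regions were dense. Of 2523 windows, 1807 (71.6%) held at least 1 member, with a median of 3 a window. Only 1.07% (0.916 to 1.25) of members lay in a window with no kept region. The number of control-only regions in a window rose with the number of kept regions (Pearson's r 0.89, Spearman's rho 0.88 over the 2523 windows) and with the number of butyrate-only regions (r 0.82, rho 0.84). These values describe the windows and have no test, since all 3 counts come from the same lists and share the input library, and windows differ in how much sequence reads can be placed on. Set against butyrate-only regions, the control-only share of both kinds was 58.5% (56.6 to 60.4) in windows with 1 to 4 kept regions. It was 57.6% with 5 to 9, 57.4% with 10 to 19 and 60.3% (59.4 to 61.3) with 20 or more. The 317 windows of the last class held 6269 members. Set against kept regions, the control-only share fell over these classes from 47.8% (46.0 to 49.5) to 37.1% (36.4 to 37.9). The number of kept regions defines the classes and enters that share, so the fall is partly built in.

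**Figure D3:**
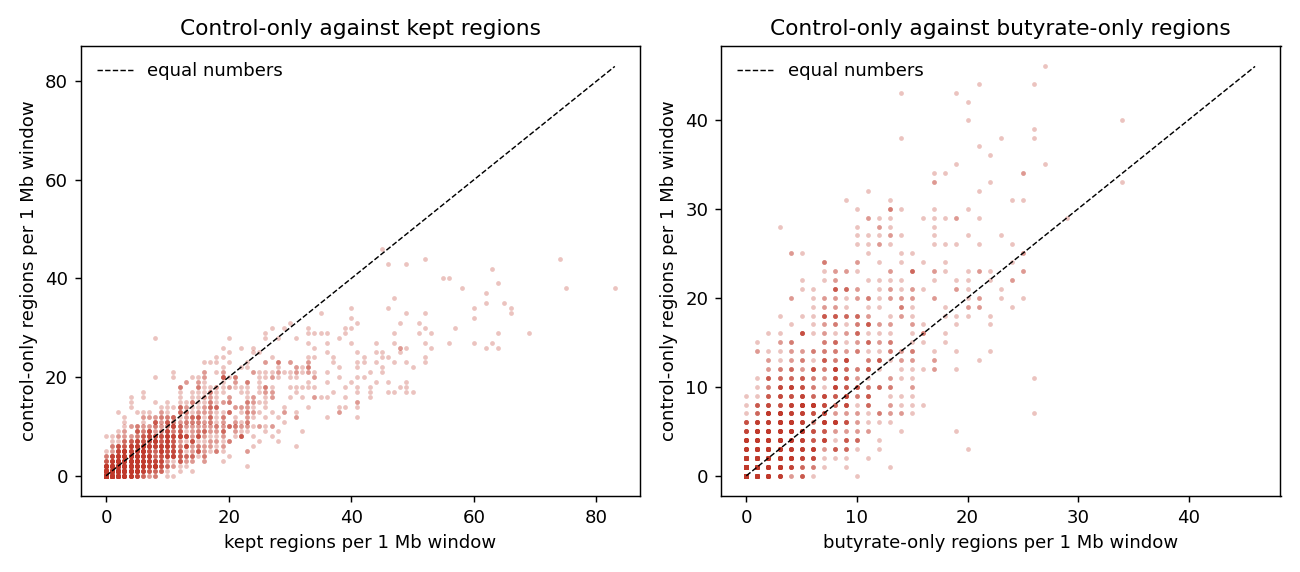
Each point is 1 of 2523 windows of 1 Mb, with the number of control-only regions on the y axis against kept regions (left) and butyrate-only regions (right) on the x axes. The dashed line marks equal numbers, and control-only regions number up to 46 in a window and follow both counts (r 0.89 and 0.82).

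The windows with the most members were also rich in kept regions. The window of chromosome 2 from 126000001 to 127000000 held 46 control-only, 27 butyrate-only and 45 kept regions. On chromosome 7, from 4000001 to 5000000, there were 44 control-only, 26 butyrate-only and 52 kept regions. Chromosome 16 had 44 control-only against 21 butyrate-only and 74 kept regions from 52000001 to 53000000. The window of chromosome 19 from 51000001 to 52000000 held 43, 19 and 49 of them, and that of chromosome 25 from 1000001 to 2000000 held 43, 14 and 46. These windows were picked for their number of members, so their balance of control-only and butyrate-only regions is no finding. Of all 1929 windows with any of the 2 kinds, 63.0% (60.8 to 65.1) held more control-only regions. Butyrate-only regions were the more numerous in 26.3% (24.4 to 28.3) of these windows. The longer control list enters these counts, and the windows were not counted again with lists of equal length.

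Every one of the 29 chromosomes had more control-only than butyrate-only regions. On each of them the control H3K27ac list was also the longer one, so this largely restates the list lengths. With the control list shortened to the length of the butyrate list, the control-only share of both kinds was 50.8%, and the chromosomes were not counted again. All 29 come from the same pair of libraries and do not repeat the comparison. The ratio of control-only to butyrate-only regions ran from 1.09 on chromosome 20 to 1.84 on chromosome 18, with a median of 1.43. On chromosome 20, 251 control-only regions faced 230 butyrate-only regions, from 588 control and 572 butyrate H3K27ac peaks. On chromosome 18 the numbers were 680 and 370, from 1879 and 1580 peaks. The ratio thus also follows the list lengths. The control-only share of control H3K27ac peaks ran from 35.5% (33.4 to 37.5) on chromosome 3 to 45.9% (40.5 to 51.4) on chromosome 27, with a median of 39.6%. The butyrate-only share of butyrate H3K27ac peaks ranged further, from 23.4% (21.4 to 25.6) on chromosome 18 to 40.2% (36.3 to 44.3) on chromosome 20. Per Mb, members were densest on chromosome 19 (13.3) and sparsest on chromosome 4 (2.83). The control-only share tended to be lower on chromosomes with more control peaks per Mb (r -0.46, rho -0.45 over 29 chromosomes, a description with no test, in which the number of control peaks enters both measures).

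**Figure D4:**
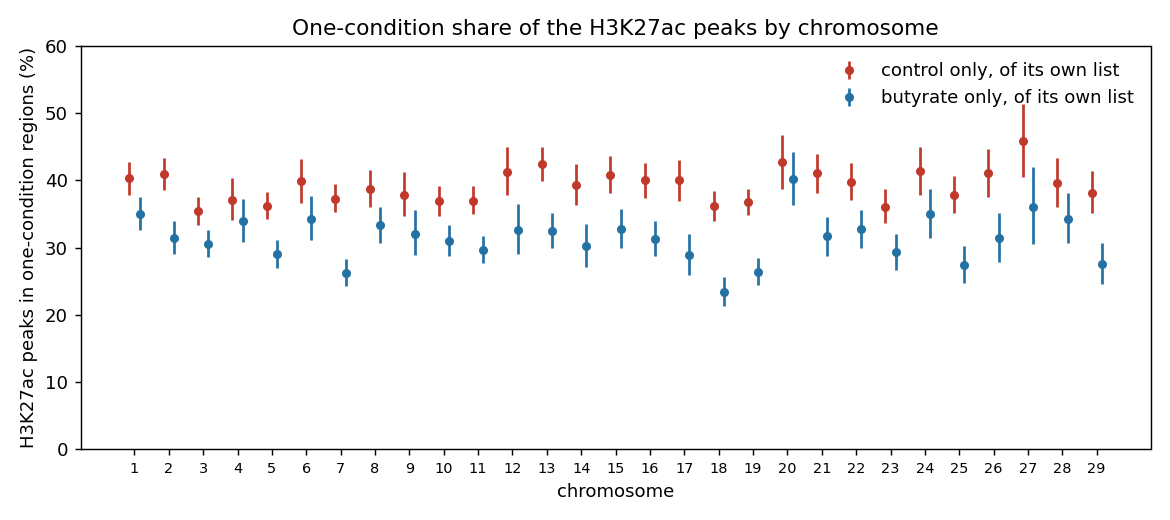
For each chromosome (x axis) the points give the percentage of control H3K27ac peaks that were control-only regions and of butyrate H3K27ac peaks that were butyrate-only regions (y axis), with 95% Wilson intervals as bars. The control-only share lies between 35.5% and 45.9% and is the higher one on each chromosome, which follows largely from the longer control list there.

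The other antibodies were not used to choose the regions. Few members were under a peak of RNA pol II or H3K9me3, whose lists are short (673 and 1242 RNA pol II peaks and 1536 and 1710 H3K9me3 peaks on chromosomes 1 to 29, in control and after butyrate). In all, 78 members (0.547%, 0.438 to 0.682) overlapped a peak of at least 1 of these 4 lists, where 1.59% (1.48 to 1.71) of all merged regions and 1.51% (1.33 to 1.71) of kept regions without H3K9ac did.

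RNA pol II was sparser on control-only regions than on kept ones. In control, 24 members (0.168%, 0.113 to 0.250) lay under an RNA pol II peak, where 0.602% of all merged regions did. Kept regions without H3K9ac had 0.593% (0.486 to 0.725), and kept regions with H3K9ac, the mark of active promoters, had 2.17% (1.80 to 2.61). After butyrate, 39 members (0.273%, 0.200 to 0.373) lay under RNA pol II, where 1.03% of all merged regions did, against 0.993% (0.851 to 1.16) of kept regions without H3K9ac. Butyrate-only regions were like members in both lists, with 0.189% (0.121 to 0.296) and 0.359% (0.259 to 0.497). Both RNA pol II libraries were run on lane 3.

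The members under RNA pol II had it in control less often than after butyrate, as acetylated regions in general did. Of the 57 members under RNA pol II in either condition, 18 had it in control alone, 33 after butyrate alone and 6 in both. The butyrate list was longer over all merged regions as well, where 207 had RNA pol II in control alone and 408 after butyrate alone. In a wider neighbourhood, 2.07% (1.85 to 2.31) of members had a control RNA pol II peak within 10 kb and 4.47% (4.14 to 4.82) a butyrate one, where 2.85% and 5.84% of all merged regions and 3.07% (2.81 to 3.34) and 6.26% (5.89 to 6.64) of kept regions without H3K9ac did.

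Width moved with the RNA pol II difference. Among regions above 200 to 300 bp, control RNA pol II lay on 0.204% (0.127 to 0.326) of members and 0.316% (0.172 to 0.581) of kept regions without H3K9ac, and butyrate RNA pol II on 0.276% (0.184 to 0.413) and 0.348% (0.194 to 0.622), with intervals that overlapped. Above 300 to 500 bp the intervals were apart, with 0.127% (0.0494 to 0.326) of members against 0.555% (0.407 to 0.758) of kept regions in control and 0.349% (0.195 to 0.624) against 0.926% (0.727 to 1.18) after butyrate. None of the 378 members over 500 bp lay under a peak of any of the 4 lists. With a limit of 3 counts for a count of 0, 0 of 378 allows a share of up to 0.794%, while kept regions of this width had control RNA pol II in 0.789% (0.592 to 1.05), a difference that was not detectable at this number, and butyrate RNA pol II in 1.42% (1.15 to 1.76).

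H3K9me3 peaks overlapping the regions showed the opposite order. In control, 25 members (0.175%, 0.119 to 0.259) lay under an H3K9me3 peak, where 0.215% of all merged regions did and 0.0375% (0.0172 to 0.0817) of kept regions without H3K9ac. After butyrate, 24 members (0.168%, 0.113 to 0.250) did, where the share was 0.221% of all merged regions and 0.0562% (0.0296 to 0.107) of kept regions without H3K9ac. Members therefore stood near the background of all regions and above the kept regions without H3K9ac, on small counts. Kept regions with H3K9ac had more, 0.430% (0.284 to 0.650) and 0.625% (0.443 to 0.882). Butyrate-only regions had 0.110% (0.0613 to 0.196) and 0.0499% (0.0213 to 0.117), the second of these with an interval overlapping that of the members only slightly. In a wider neighbourhood the order was not seen. A control H3K9me3 peak lay within 10 kb of 0.897% (0.755 to 1.07) of members and 0.887% (0.753 to 1.04) of kept regions without H3K9ac. A butyrate one lay that near to 1.10% (0.942 to 1.29) and 1.22% (1.06 to 1.40). The shares over all merged regions were 1.01% and 1.32%. Within the width class above 200 to 300 bp, control H3K9me3 was on 0.204% (0.127 to 0.326) of members and 0.0633% (0.0173 to 0.230) of kept regions without H3K9ac, with overlapping intervals. For butyrate H3K9me3 these shares were 0.144% (0.0823 to 0.251) and 0.0316% (0.00558 to 0.179), which overlapped too. Above 300 to 500 bp the control shares were 0.127% (0.0494 to 0.326) and 0.0427% (0.0145 to 0.126), again overlapping. The butyrate intervals of that class also overlapped, so within classes the difference was not resolved.

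**Figure D5:**
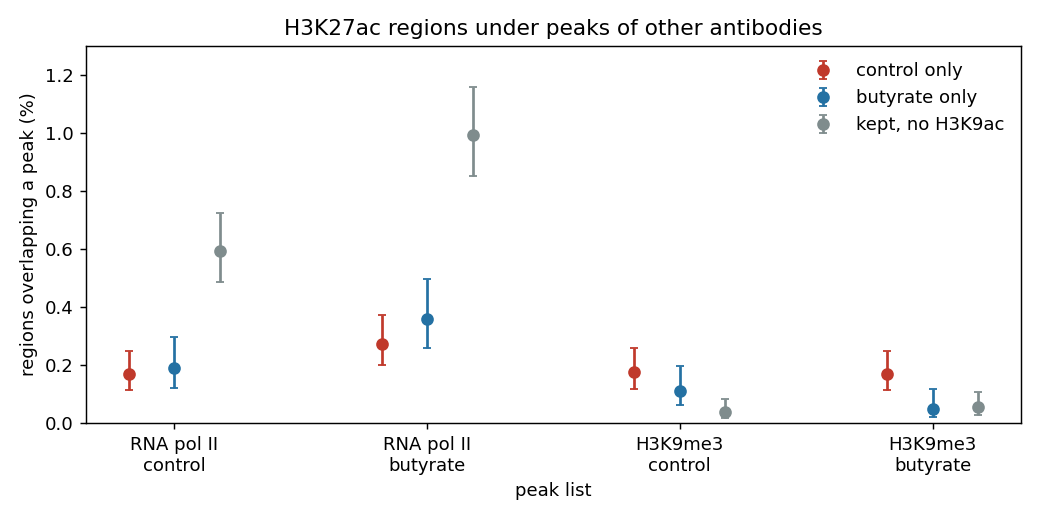
The points give the percentage of control-only, butyrate-only and kept H3K27ac regions without H3K9ac (y axis) that overlap a peak of RNA pol II or H3K9me3 in control or after butyrate (x axis), with 95% Wilson intervals as bars. Members had less RNA pol II (0.168% and 0.273%) than kept regions without H3K9ac (0.593% and 0.993%). Their H3K9me3 shares (0.175% and 0.168%) were above those of the same kept regions (0.0375% and 0.0562%). All merged regions had 0.215% and 0.221%. Within width classes the H3K9me3 intervals of members and these kept regions overlapped.

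H3K9me3 was as frequent on members in control as after butyrate. Of 38 members under it in either condition, 14 had it in control alone, 13 after butyrate alone and 11 in both. Over all 147 merged regions under H3K9me3 the numbers were 43, 46 and 58, so control alone and butyrate alone were near equal there too. The control H3K9me3 library was on lane 3 and the butyrate one on lane 4. Members under H3K9me3 lay farther from kept H3K27ac than members in general. None of the 25 under control H3K9me3 and none of the 24 under butyrate H3K9me3 was within 1 kb of a kept region, counts of 0 that by the same limit of 3 counts allow shares of up to 12% and 12.5%, where 27.7% of all members were. Their median gaps to a kept region were 107600 and 45280 bp, against 5958 bp for all members. Members under control or butyrate RNA pol II stood between these, with medians of 25220 and 18780 bp, and 3 of 24 and 9 of 39 were within 1 kb of a kept region. The 11 members with H3K9me3 in both conditions enter both H3K9me3 counts. Gaps were not computed for other acetylated regions under these marks, so the longer gaps cannot be called particular to members.

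A few members lay under both RNA pol II and H3K9me3. RNA pol II and H3K9me3, each in either condition, which need not be the same one, were found on 17 members (0.119%, 0.0744 to 0.191). The share was 0.189% (0.154 to 0.233) over all merged regions, 0.0312% (0.0133 to 0.0731) of kept regions without H3K9ac and 0.547% (0.379 to 0.790) of kept regions with H3K9ac. In control, both lay on 5 members, which were chr8:61278953-61279154, chr8:62151848-62152063, chr9:23729260-23729466, chr20:41453440-41453657 and chr27:23701797-23702122. They were 202 to 326 bp wide and stood 18521 to 195655 bp from a kept region. Those on chromosomes 20 and 27 lay under peaks of all 4 lists of RNA pol II and H3K9me3. All these lists were called against the same input library, which was not analysed here.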

How the data were processed

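For each library the authors deposited 1 peak list, with 3 columns (chromosome, start, end) and no score, signal or read number. Per the study's methods, BWA with default options placed reads of 75 nt on UMD3.1.1 (UMD3.1 in the labels), uniquely placed reads with few mismatches were retained, and peaks were called with MACS2 at default settings against the input. The submitters' processing notes also name Trim Galore 0.4.1. Whether reads were single-end or paired-end differs between sources. Groups came from the labelled antibody and treatment, and 8 lists were used. Positions were read as 1-based with both ends included.

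Peaks of the acetylation lists sharing at least 1 bp were merged with a Python 3.11.15 script (numpy 2.4.6, scipy 1.17.1), which was tested on simulated peaks against a brute-force count. Gaps are the bases between region ends. With 1 library a group no test between conditions was run, and shares have Wilson 95% intervals. The named regions follow a rule by width, gap, number of members, or overlap. The set and the lists were chosen with earlier results of these data known. The alternatives were 6 other settings and 1 added after seeing the data.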

Additional observations from a re-analysis of the deposited data

Results flagged for a closer look

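Chromosome X was outside the merged set of chromosomes 1 to 29, and the same rule applied there found 313 control-only regions among 605 control H3K27ac peaks, a share of 51.7% (47.8 to 55.7) above that of any of the 29 chromosomes in the set. Butyrate-only regions were 172 of 466 butyrate H3K27ac peaks on X, or 36.9% (32.7 to 41.4). Of the 313 regions, 7.99% (5.47 to 11.5) lay under an H3K9me3 peak in control and as many after butyrate, while RNA pol II lay on 4.79% (2.93 to 7.76) in control and 4.15% (2.44 to 6.98) after butyrate. These are values of single libraries, and the sex of the animals is not given in the sources used here. The mark shares over all acetylated regions of X were not computed, so whether the control-only ones differ from them cannot be said.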

How the results depend on the processing

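With 1 library per group no replicate could be left out. No paired analysis was possible because there was a single library for each antibody and condition. Of 84 values under 7 alternative settings, 35 stayed within the counting interval of the reported value (or within 1.5 times of the reported number) and 49 moved. The difference in the share near kept regions, the only signed value, kept its sign in all 7. The lists bound what can be said, since without scores or read numbers a peak just under the caller's threshold and an absent one look alike.

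Adding X moved control RNA pol II on members to 0.267%, control H3K9me3 to 0.343% and butyrate H3K9me3 to 0.336%. Without peaks of 200 bp, members were 37.3% of control peaks, 47.4% lay within 10 kb of another, 0.167% were under butyrate RNA pol II and 57.2% of one-condition regions were control-only. Merging peaks up to 500 bp apart gave a share of control peaks of 27.3%, a median gap to kept regions of 11760 bp, shares within 10 kb of kept, control-only and butyrate-only regions of 47.0%, 32.3% and 22.8%, and a control-only share of one-condition regions of 60.8%. With only peaks wider than 300 bp there were 6884 members with a median gap of 14740 bp, shares within 10 kb of 43.9%, 33.8% and 29.7%, RNA pol II on 0.0436% (control) and 0.0581% (butyrate), H3K9me3 on 0.0726% in both conditions, a control-only share of 55.0% and a difference to butyrate-only regions near kept regions of -3.70 points. Requiring no peak of the other H3K27ac list within 1 kb left 9098 members, 24.6% of control peaks, with a median gap of 15500 bp, shares within 10 kb of 40.4%, 36.0% and 17.0%, control H3K9me3 on 0.264%, a control-only share of 61.9% and a difference of -3.74 points. Keeping the first 50% of every list, in file order, gave 7835 members, 42.5% of control peaks, a median gap of 17420 bp, shares within 10 kb of 41.8%, 36.9% and 29.4%, H3K9me3 on 0.0893% in both conditions and a control-only share of 57.7%. Chosen after seeing the data, a control list as short as the butyrate list gave 37.6% of control peaks, a median gap of 7575 bp, shares within 10 kb of 54.2%, 45.0% and 42.2%, a control-only share of 50.8% and a difference of -7.90 points. The requirement of 1 kb drops members and butyrate-only regions, of which it left 5595, and leaves the lists and the kept regions as they were. Each kept region holds a butyrate H3K27ac peak, so this setting drops members close to kept regions by its rule. Its longer median gap is therefore no separate finding. The control-only share of 50.8% follows largely from lists of equal length. The cause of the other moves was not tested.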
